A study of Homo sapiens with 9 samples.

Results

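Proteasome genes were described in HEK293T, an immortal line of human kidney origin, with overexpression of the kinase PLK2, of its D223N variant, changed in the kinase domain, or of a tag alone. Genes were taken as members when their symbol began with PSM, a letter from A to G and a number. This gave 50 of the 17083 genes listed, and 46 of them were among the 12924 genes with enough counts to be tested. The members were 7 subunits of the α ring and 7 constitutive subunits of the β ring of the 20S core, 3 immunoproteasome subunits and 2 tissue-specific core subunits. A further 6 encode the ATPases and 11 encode other subunits of the 19S cap, 5 encode activators or an inhibitor of the core, and 7 encode assembly chaperones. SEM1, a cap subunit whose symbol lacks the pattern, is not among the members and is given below with other genes. PSMC3IP, a cofactor of meiotic recombination, and PSME3IP1, a protein that binds PSME3, share the symbol pattern but are no part of the proteasome.

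The proteasome is the protease that degrades proteins marked with ubiquitin. In its 20S core, a β ring pair that holds the catalytic sites sits between a pair of α rings that gate the entry, and the 19S cap binds, unfolds and feeds in the substrate. Cells exposed to interferon-γ replace the 3 catalytic β subunits with the inducible PSMB8, PSMB9 and PSMB10, which changes the peptides made for MHC class I. The proteasome also degrades the inhibitor of NF-κB, which places it in the pathway the study is about, since the series concerns PLK2, HSP90α and IKKβ in the activation of microglia. These libraries are from kidney-derived cells and not from microglia.

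The first group carried PLK2-FLAG, the second PLK2(D223N)-FLAG and the third the FLAG vector alone (Vector), with 3 libraries each from cells of wild-type genotype. The libraries held between 14288165 and 16510186 estimated counts. PLK2 RNA averaged 23740 ± 2384 CPM (counts scaled to the library total) with PLK2, 12360 ± 1650 CPM with PLK2(D223N) and 3.42 ± 0.64 CPM with Vector (SD, n = 3 each), so that PLK2 RNA itself differed between the 2 constructs. The labels name epithelial cells, and of the markers of that type KRT18 was at 69.6 TPM (a level that accounts for transcript length) and KRT8 at 23.7 TPM, while EPCAM was at 2.74 TPM and CDH1 below that. Vector replicate 1 stood apart from the other Vector libraries. The chi-square per gene between it and replicates 2 and 3 was 17.8 and 10.8, against 2.69 between replicates 2 and 3 and at most 2.81 within the PLK2 and PLK2(D223N) groups. The design text calls the libraries of a group biological replicates but does not say whether they came from separate cultures or transfections, so that p-values measure only the spread between these libraries, which may be in part technical. RNA was measured and protein was not, and in bulk RNA fewer cells with a transcript and less of it per cell cannot be told apart.

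Most proteasome genes were among the more abundant transcripts. Of the 50 members, 33 had a mean of at least 100 TPM over the 9 libraries, against 9.30% of all genes listed, and 45 had at least 10 TPM. The median of all genes was 9.78 TPM. The core rings were the most abundant classes. The median over the 7 α subunits was 429 TPM and over the 7 constitutive β subunits 440 TPM, against 142 TPM for the 6 ATPases and 198 TPM for the 11 other cap subunits.

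Subunits that stand in equal number in the particle did not have equal RNA. In the β ring, PSMB4 (gene 5692, chromosome 1, 151399534 to 151401944) was highest at a mean of 685 TPM and PSMB2 (gene 5690, chromosome 1, 35599544 to 35641844) lowest at 90.8 TPM, a ratio of 7.55. Gene numbers are the identifiers of the deposited table, and positions are those of GENCODE 29 on GRCh38. In the α ring PSMA4 was highest at 545 TPM and PSMA5 lowest at 91.3 TPM, a ratio of 5.97. PSMB4 and PSMB2 kept these places in all 9 libraries, as did PSMA5, while PSMA7 was above PSMA4 in Vector replicate 1. PSMB4 ran from 659 to 694 TPM with PLK2, from 661 to 681 TPM with PLK2(D223N) and from 673 to 736 TPM with Vector. PSMB2 ran from 82.7 to 92.0 TPM with PLK2, from 86.3 to 92.3 TPM with PLK2(D223N) and from 90.2 to 104 TPM with Vector. The 6 ATPases, which unfold the substrate, lay closest together. Here PSMC3 was highest at 267 TPM and PSMC4 lowest at 121 TPM, a ratio of 2.20.

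**Figure D1:**
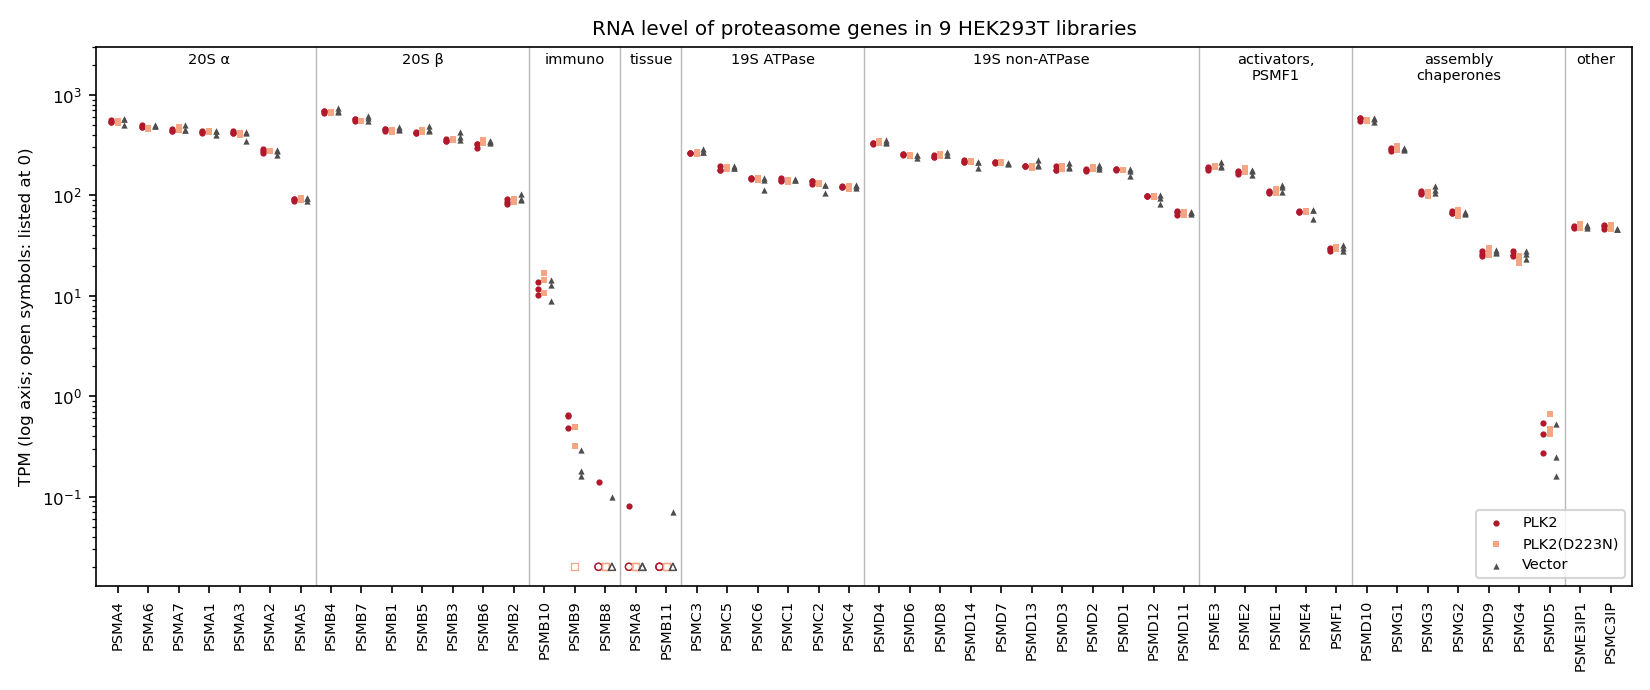
Level of each of the 50 genes in each library (TPM, log axis), by class and in falling order of the mean within a class, with PLK2, PLK2(D223N) and Vector libraries side by side and open symbols for libraries where a gene is listed at 0. The constitutive core genes lie between 82.7 and 736 TPM, while PSMB8, PSMB9, PSMA8, PSMB11 and PSMD5 lie below 1 TPM.

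The catalytic sites were unequal in RNA as well. PSMB7, which carries the trypsin-like site, was at 564 ± 13.8 TPM with PLK2, 552 ± 1.82 TPM with PLK2(D223N) and 585 ± 30.8 TPM with Vector. PSMB5, which carries the chymotrypsin-like site, was at 421 ± 5.29 TPM with PLK2, 438 ± 11.8 TPM with PLK2(D223N) and 460 ± 27.5 TPM with Vector. PSMB6, which carries the caspase-like site, was at 316 ± 17.8 TPM with PLK2, 341 ± 12.1 TPM with PLK2(D223N) and 345 ± 11.2 TPM with Vector (SD, n = 3 each). The order PSMB7, PSMB5, PSMB6 held in all 9 libraries.

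Among the 11 cap members without ATPase activity, PSMD4, a ubiquitin receptor, had the highest mean at 337 TPM. PSMD11, a lid subunit, had the lowest at 66.6 TPM. PSMD14, the deubiquitinase that cuts ubiquitin chains off the substrate, was at 214 TPM. Among the activators, PSME3, which forms a nuclear ring of its own, was at 193 TPM. PSME2 and PSME1, which together form the interferon-inducible ring, were at 172 and 112 TPM, PSME4, a large single-chain activator, at 68.0 TPM, and PSMF1, an inhibitor of the core, at 29.6 TPM. The chaperones spread most widely. PSMD10, a chaperone of the cap base also known as gankyrin, was at 566 TPM, above most subunits, and PSMD5, another chaperone of the base, was at 0.413 TPM.

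The PSMD5 value (gene 5711, chromosome 9, 120815496 to 120842984) rests on few counts. With PLK2 the 3 libraries held 15, 11 and 7 counts, with PLK2(D223N) 17, 11 and 13, and with Vector 5, 6 and 15. The groups overlapped, and the level lay below 1 TPM in every library. PSMD9, the remaining chaperone of the base, was at 27.4 TPM, and the core chaperones ran from PSMG1 at 290 TPM to PSMG4 at 24.97 TPM.

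Of the 3 inducible subunits, PSMB8 and PSMB9 were near silent and PSMB10 was not. PSMB8 (gene 5696, chromosome 6, 32840717 to 32844703), the inducible counterpart of PSMB5, had 1 count over the 3 PLK2 libraries, 0 over the PLK2(D223N) libraries and 1 over the Vector libraries, where 0 counts, taken to allow up to 3, put the PLK2(D223N) group at no more than 0.0621 CPM before TMM scaling. As a share of PSMB8 and PSMB5 together it averaged 0.0060% of TPM over the 9 libraries, with a highest value of 0.0335%. PSMB10 (gene 5699, chromosome 16, 67934502 to 67937087), the counterpart of PSMB7, was the one with a measurable share. It made up 2.05 ± 0.26% of PSMB10 and PSMB7 with PLK2, 2.46 ± 0.54% with PLK2(D223N) and 1.99 ± 0.38% with Vector (SD, n = 3 each), and the 3 groups overlapped.

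PSMB9 (gene 5698, chromosome 6, 32844136 to 32859585), the counterpart of PSMB6, stood between them and was too low to be tested. The PLK2 libraries held 3, 4 and 4 counts, the PLK2(D223N) libraries 0, 3 and 2, and the Vector libraries 2, 1 and 1. The sums were 11 counts with PLK2 (exact 95% Poisson interval 5.49 to 19.7), 5 with PLK2(D223N) (1.62 to 11.7) and 4 with Vector (1.09 to 10.2), and the intervals overlap. They cover counting error only. Its share of PSMB9 and PSMB6 was 0.186 ± 0.034% with PLK2, 0.0799 ± 0.0751% with PLK2(D223N) and 0.0608 ± 0.0194% with Vector. Of the tissue forms, PSMA8, known from testis, had 1 count in all, in a PLK2 library, and PSMB11, known from thymus, had 1 count in all, in a Vector library.

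The start regions of the inducible genes and of the 2 interferon-inducible activators are shown because all of them but PSMB9 hold the same short sequence while their RNA levels were far apart, with PSMG4, which holds it too, and PSMB5 for comparison. The sequences are from RefSeq, build GRCh38.p14, cover 70 bases before to 30 bases after the start, and run 5′ to 3′ on the strand of the gene. Capitals mark GAAANNGAAA on either strand, the core of the interferon-stimulated response element, so that TTTCGCTTTC is a match on the other strand.
PSMB8 (chr6:32844018-32844117, minus strand, 1 of 2 starts): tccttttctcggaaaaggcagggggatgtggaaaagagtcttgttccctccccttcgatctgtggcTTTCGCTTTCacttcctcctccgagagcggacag
PSMB10 (chr16:67936821-67936920, minus strand): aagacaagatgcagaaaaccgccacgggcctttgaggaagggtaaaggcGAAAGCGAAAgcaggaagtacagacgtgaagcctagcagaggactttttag
PSME1 (chr14:24136124-24136223, plus strand): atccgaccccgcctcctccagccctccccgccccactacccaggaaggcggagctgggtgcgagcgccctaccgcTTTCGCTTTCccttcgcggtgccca
PSME2 (chr14:24146581-24146680, minus strand): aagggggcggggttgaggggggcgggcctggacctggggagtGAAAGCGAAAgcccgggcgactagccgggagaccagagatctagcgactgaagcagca
PSMG4 (chr6:3258877-3258976, plus strand): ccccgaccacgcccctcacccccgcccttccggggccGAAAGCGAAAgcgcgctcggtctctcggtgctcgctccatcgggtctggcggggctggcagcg
PSMB9 (chr6:32854122-32854221, plus strand): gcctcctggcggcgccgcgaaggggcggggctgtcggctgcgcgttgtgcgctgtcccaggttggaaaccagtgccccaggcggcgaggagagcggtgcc
PSMB5 (chr14:23035191-23035290, minus strand, 1 of 2 starts): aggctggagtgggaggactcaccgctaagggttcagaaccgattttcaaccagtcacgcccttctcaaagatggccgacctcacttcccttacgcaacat

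PSMB8, PSMB10, PSME1, PSME2 and the core chaperone gene PSMG4 each held the same 10 letters, GAAAGCGAAA. In PSMB8 the match ran from base -4 to base 6 around the start, and in PSME1 from base 6 to base 15. Of the 2 PSMB8 starts, the one shown was ranked first by its number of GAAANNGAAA matches. Its match is thus in part an outcome of that choice. In the other 3 it lay upstream, from -21 to -12 in PSMB10, from -28 to -19 in PSME2 and from -33 to -24 in PSMG4. PSMB9 and PSMB5 held no match in their windows. The levels of the 5 genes ran from 0.0267 TPM for PSMB8 through 12.6 TPM for PSMB10 and 24.97 TPM for PSMG4 to 112 TPM for PSME1 and 172 TPM for PSME2. Over the whole window of 250 bases before to 50 after the start, GAAANNGAAA was in these 5 and in PSMA4 and PSMB4, 7 of the 44 members with a RefSeq window (15.9%), and in 4.38% of the 27305 genes of the table, both strands searched. GAAAGCGAAA, which is one form of it, was read from the PSMB10 window and counted after the sequences had been seen. Its match in PSMB10 was thus fixed in advance. It was in 5 of the 44 (11.4%) and in 0.125% of all genes, which include the members.

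No proteasome gene passed the test in any comparison. In PLK2 against Vector, 0 of the 46 tested members were called by edgeR at an adjusted p below 0.05, where 0.511% of all tested genes were called. In PLK2(D223N) against Vector 0 of 46 were called, with 0.0232% of all genes, and in PLK2 against PLK2(D223N) 0 of 46, with 0.162%. The Wald test of DESeq2 called 0 of 46 in each comparison, and limma on log2(TPM + 1) 0 of 45. At an unadjusted p below 0.05, edgeR gave 1 member in PLK2 against Vector (16.4% of all genes), 2 members in PLK2(D223N) against Vector (8.53%) and 0 in PLK2 against PLK2(D223N) (6.04%). That last count depended on the spread, which was taken from all 9 libraries. In a fit to the 6 libraries of both constructs it was 16 of 46 at the unadjusted threshold. At an adjusted p below 0.05, 1 of 46 members and 3.92% of all genes passed in that fit. Without Vector replicate 1 the unadjusted count was 12 of 46. At an adjusted p below 0.05, 0 of 46 members and 317 of 13020 genes passed there. The share of all genes at the unadjusted threshold was not counted in these fits, so the unadjusted counts have no background beside them.

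The intervals bound the size of a difference. For the 44 members with a mean of at least 10 CPM, the 95% intervals of the log2 fold change all lay between -0.30 and 0.28 in PLK2 against Vector. They lay between -0.31 and 0.22 in PLK2(D223N) against Vector, and between -0.20 and 0.22 in PLK2 against PLK2(D223N). The median log2 fold change over the 46 members was -0.021 in PLK2 against Vector, where it was -0.004 over all tested genes. It was -0.057 against 0.008 in PLK2(D223N) against Vector, and 0.034 against -0.005 in PLK2 against PLK2(D223N). PSMB10 and PSMD5 had wider intervals, up to 0.42 and 1.26 in PLK2 against Vector.

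In 2 of the 19 alternatives some members passed. Without Vector replicate 2, which leaves Vector with replicate 1 and replicate 3, PSME1, PSMB3 and PSMB5 were called lower in PLK2, among 12.7% of all genes called. With the spread taken from the 6 libraries of both constructs alone, PSMC1 was called higher in PLK2 than in PLK2(D223N), among 3.92% of all genes called.

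**Figure D2:**
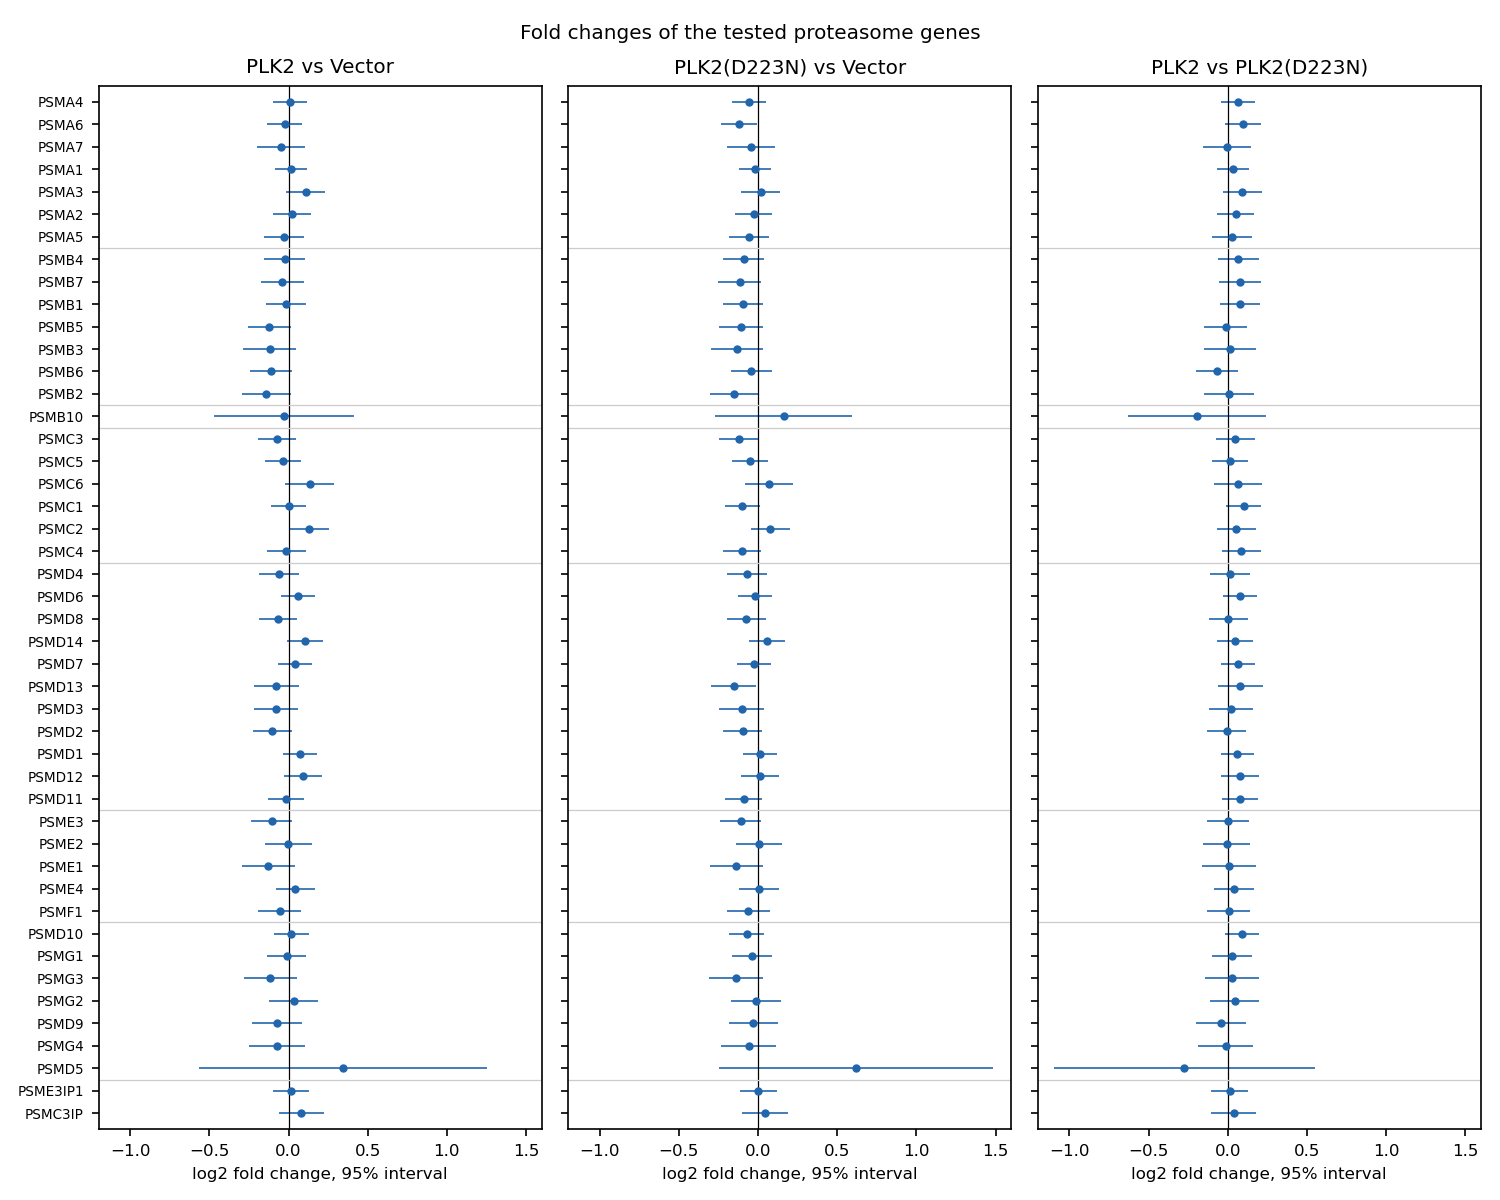
Log2 fold change (point) with its 95% interval (bar) of the 46 tested genes in the 3 comparisons, in the class order of the plot of levels, with grey lines between classes. No gene passed at an adjusted p below 0.05, and all intervals but those of PSMB10 and PSMD5 lie within -0.31 and 0.28.

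Against Vector, the members with the smallest p among those higher in PLK2 were 2 ATPases, PSMC2 and PSMC6, the deubiquitinase PSMD14 and the α subunit PSMA3. PSMC2 (gene 5701, chromosome 7, 103344254 to 103369395) was at 163, 166 and 153 CPM with PLK2, against 136, 154 and 150 CPM with Vector (log2 fold change 0.13, SE 0.06, adjusted p = 0.284). The libraries of the groups overlapped by 1 value. PSMC6 was at 160, 158 and 157 CPM with PLK2, against 125, 157 and 152 CPM with Vector (log2 fold change 0.13, SE 0.07, adjusted p = 0.351). All 3 PLK2 libraries were above the Vector libraries, but Vector replicates 2 and 3 lay close to them and replicate 1 far below. PSMA3 was at 152, 152 and 154 CPM with PLK2, against 129, 147 and 150 CPM with Vector, and PSMD14 at 152, 163 and 150 CPM, against 137, 146 and 149 CPM. Their log2 fold changes were 0.11 (SE 0.06, adjusted p = 0.35) and 0.10 (SE 0.05, adjusted p = 0.34).

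Among those lower in PLK2, the smallest p were those of 3 β subunits and of PSMD2, a large cap subunit that binds ubiquitin and the factors that shuttle it. PSMB2 was at 215, 206 and 189 CPM with PLK2, against 253, 205 and 214 CPM with Vector (log2 fold change -0.14, SE 0.07, adjusted p = 0.34). PSMB5 was at 177, 176 and 169 CPM with PLK2, against 209, 173 and 184 CPM with Vector (log2 fold change -0.12, SE 0.06, adjusted p = 0.348). For both, the highest value of the 9 was Vector replicate 1 and the groups overlapped. The log2 fold change of PSMB6 was -0.11 (SE 0.06, adjusted p = 0.371). PSMD2 was at 266, 260 and 266 CPM with PLK2, against 310, 272 and 267 CPM with Vector (log2 fold change -0.10, SE 0.06, adjusted p = 0.371). It was the one member with all PLK2 libraries below the Vector libraries (10.1% of all genes), while PSMA3, PSMC6 and PSMD14 were the 3 with all of them above (10% of all genes).

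By class, PLK2 and Vector libraries differed in no common direction except in the β ring. Of the α subunits 4 of 7 had a fold change above 0, of the ATPases 3 of 6, of the other cap subunits 5 of 11, of the activators and PSMF1 1 of 5, and of the chaperones 3 of 7. All 7 β subunits were below 0, with a median of -0.11. In all, 18 of the 46 members were above 0 (48.9% of all genes), among them the 2 matched by symbol alone, PSMC3IP and PSME3IP1.

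With the kinase-domain form, PLK2(D223N) against Vector, the smallest p among lower members were those of PSMD13, a cap subunit, PSMA6, PSMC3 and PSMB2. PSMD13 (gene 5719, chromosome 11, 236546 to 252984) was at 131, 136 and 133 CPM with PLK2(D223N), against 167, 137 and 141 CPM with Vector (log2 fold change -0.16, SE 0.07, adjusted p = 0.574). PSMA6, an α subunit, was at 178, 183 and 184 CPM, against 203, 189 and 199 CPM (log2 fold change -0.12, SE 0.05, adjusted p = 0.574). The PLK2(D223N) libraries lay below the Vector libraries for both. PSMC3 and PSMB2 had log2 fold changes of -0.12 (SE 0.06) and -0.15 (SE 0.07), both with an adjusted p of 0.574. In all, 6 members had no overlap and were lower in PLK2(D223N) (7.21% of all genes), namely PSMD13, PSMD10, PSME3, PSMC1, PSMA6 and PSMD11, and 0 were higher (6.66%).

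Among the members above 0 in that comparison, PSMD5 had the smallest p, at 0.62 on the log2 scale (SE 0.41, adjusted p = 0.611) on the few counts given above. PSMC2, PSMD14 and PSMC6 followed at 0.08 (SE 0.06), 0.06 (SE 0.05) and 0.07 (SE 0.07). Of the 46 members, 12 were above 0 (52.7% of all genes), PSMC3IP and PSME3IP1 among them. Below 0 were 7 of 7 β subunits, 6 of 7 α subunits, 8 of 11 cap subunits without ATPase activity, 4 of 6 ATPases, 3 of 5 activators with PSMF1 and 6 of 7 chaperones. Since this comparison and the preceding one share the Vector libraries, their directions are not independent.

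Between the constructs, PLK2 against PLK2(D223N), PSMC1 (gene 5700, chromosome 14, 90256495 to 90275429), an ATPase of the cap, had the smallest p. It was at 247, 260 and 241 CPM with PLK2, against 232, 234 and 231 CPM with PLK2(D223N) (log2 fold change 0.10, SE 0.05, adjusted p = 0.86). The groups did not overlap. PSMA6, PSMD10 and PSMA3 followed at 0.10 (SE 0.05), 0.09 (SE 0.05) and 0.09 (SE 0.06). Below 0, the smallest p were those of PSMB6 at -0.07 (SE 0.06), PSMB10 at -0.19 (SE 0.20), PSMD5 at -0.27 (SE 0.39) and PSMD9 at -0.04 (SE 0.07), with adjusted p-values from 0.942 to 0.984. PSMB10 was at 4.37, 5.19 and 3.70 CPM with PLK2, against 6.15, 5.12 and 3.87 CPM with PLK2(D223N), and the groups overlapped.

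More members lay on the higher side there, by small amounts. Of the 46, 37 were above 0 in PLK2 against PLK2(D223N), against 47.9% of all genes, among them 6 of 6 ATPases with a median of 0.059 and 10 of 11 other cap subunits. The 37 include PSMC3IP and PSME3IP1. For 9 members all PLK2 libraries were above the PLK2(D223N) libraries (11% of all genes), and for 0 they were below (9.49%). The 9 were PSMA3, PSMD12, PSMC6, PSMD13, PSME4, PSMC4, PSMC1, PSMA6 and PSMB1. On the log2(TPM + 1) scale in limma all genes lay lower, with a median of -0.053 and 24.9% above 0. There 20 of 45 members were above 0, with a median of -0.003, and 4 of 6 ATPases.

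None of the activators or PSMF1 passed the test in any comparison. PSME1 (gene 5720, chromosome 14, 24136158 to 24138967) was at 39.1, 40.4 and 39.9 CPM with PLK2, at 40.1, 40.7 and 37.9 CPM with PLK2(D223N), and at 48.6, 37.5 and 44.1 CPM with Vector, so that the Vector libraries lay on both sides of the others. PSME2 averaged 46.2 ± 0.84 CPM with PLK2, 46.4 ± 2.0 CPM with PLK2(D223N) and 46.2 ± 4.4 CPM with Vector. PSME3 averaged 303 ± 6.5 CPM with PLK2, 302 ± 4.1 CPM with PLK2(D223N) and 326 ± 31.8 CPM with Vector. PSME4, which also serves in DNA repair and in the testis, averaged 270 ± 3.3 CPM with PLK2, 263 ± 3.1 CPM with PLK2(D223N) and 262 ± 22.1 CPM with Vector. PSMF1 averaged 127 ± 1.8 CPM with PLK2, 127 ± 3.1 CPM with PLK2(D223N) and 132 ± 13.1 CPM with Vector (SD, n = 3 each). PSME3 was lower in all PLK2(D223N) libraries than in the Vector libraries, and PSME4 higher in all PLK2 than in the PLK2(D223N) libraries, while the other pairs of groups overlapped. In every one of these 5 genes the Vector libraries had the largest SD. The ubiquitin receptor PSMD4 was likewise at 187 ± 6.0 CPM with PLK2, 185 ± 6.5 CPM with PLK2(D223N) and 195 ± 14.8 CPM with Vector.

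Summed over a class, the levels were close. The β ring summed to 2872 ± 10.3 TPM with PLK2, 2892 ± 15.7 TPM with PLK2(D223N) and 3034 ± 159 TPM with Vector. The α ring summed to 2687 ± 28.4 TPM with PLK2, 2676 ± 11.96 TPM with PLK2(D223N) and 2695 ± 87.2 TPM with Vector. The ATPases summed to 997 ± 6.5 TPM with PLK2, 987 ± 18.0 TPM with PLK2(D223N) and 989 ± 19.6 TPM with Vector. The other cap members, without SEM1, summed to 2168 ± 13.1 TPM with PLK2, 2180 ± 10.8 TPM with PLK2(D223N) and 2184 ± 6.5 TPM with Vector (SD, n = 3 each). In the β ring Vector replicate 1 stood above the other 8 libraries, at 3204 TPM against 2861 to 3008 TPM, and in the α ring it stood below them, at 2595 TPM against 2668 to 2756 TPM.

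**Figure D3:**
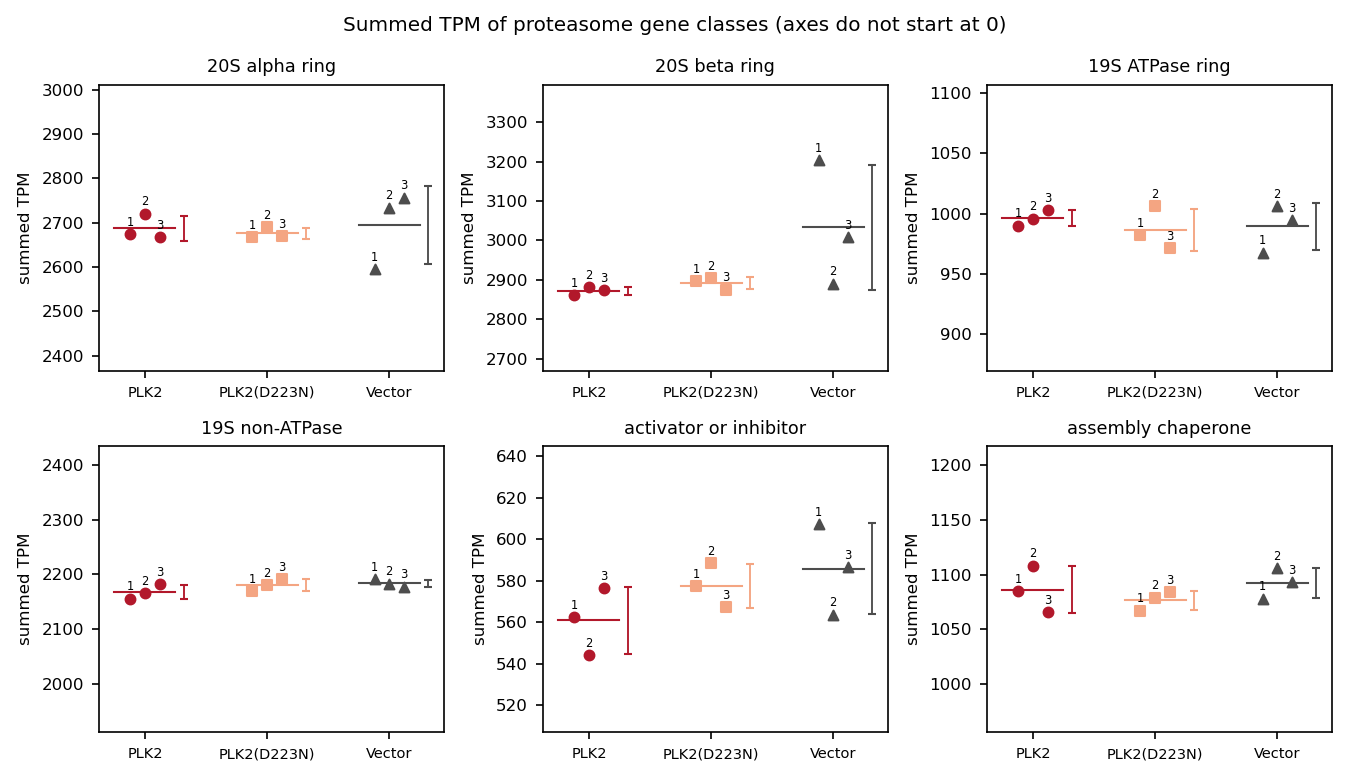
Summed TPM of 6 classes in each library, numbered by replicate, with the group mean (line) and SD (bar, n = 3), in the order PLK2, PLK2(D223N), Vector; the axes do not start at 0. Vector replicate 1 is the highest of 9 libraries in the β ring and the lowest in the α ring.

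The size of the β ring difference depended on that library. In CPM, Vector replicate 1 was the highest of the 9 libraries for all 7 β subunits, and for 26 of the 46 tested members. Without it, 4 of 7 β subunits were below 0 in PLK2 against Vector, with a median of -0.011, and 6 of 7 in PLK2(D223N) against Vector, with a median of -0.028. In the members, the difference between Vector replicate 1 and the mean of replicates 2 and 3 went with the GC content of the transcript. The 32 members higher in replicate 1 had a median GC content of 52.0%, and the 14 lower ones 41.5%. Across 45 members with a mean of at least 10 TPM, Pearson's r was 0.751 and Spearman's rho 0.708. Without a TPM limit they were 0.644 and 0.721 across the 46 tested members, and 0.555 and 0.655 across 12822 tested genes. These are descriptions across genes of the same libraries, and genes are not independent replicates. PSMC6, with a GC content of 36.8%, differed by -0.31 on the log2 scale, and PSMB3, at 53.6%, by 0.31. With GC content and length trends removed from each library, 6 of 7 β subunits were below 0 in PLK2 against Vector (median -0.071). In PLK2(D223N) against Vector 7 of 7 were below 0 (median -0.076). In that setting the β ring no longer stood apart from the α ring. Of the α subunits 6 of 7 were below 0 in each of these comparisons, with medians of -0.071 and -0.088. The medians over all tested genes were -0.023 and -0.018, with 41.6% and 42.8% of genes above 0. The part of GC content in these differences was not otherwise tested.

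**Figure D4:**
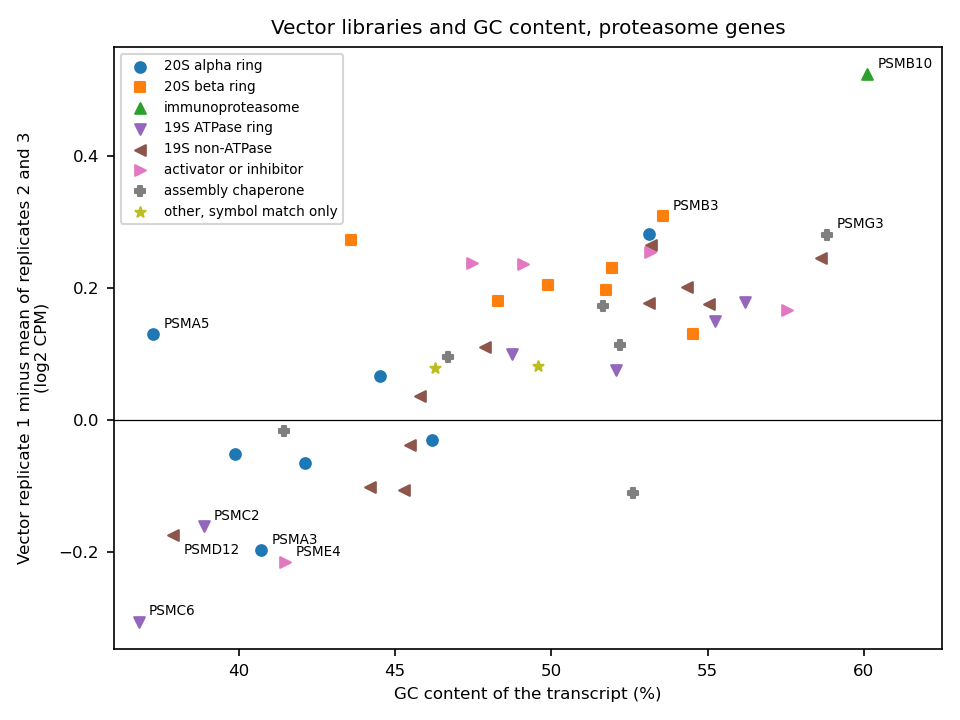
GC content of the transcript (%, x axis) against the difference between Vector replicate 1 and the mean of Vector replicates 2 and 3 (log2 CPM, y axis) for 45 members with a mean of at least 10 TPM, with symbols by class; PSMD5, with 5 to 15 counts in these libraries, is left out. PSMC6 (36.8% GC, -0.31) and PSMB3 (53.6% GC, 0.31) lie near the ends, and PSMB10 is highest at 0.52.

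Genes that act with the proteasome were also compared. Of the 19 tested ubiquitin receptors and enzymes that bind it, 0 passed in any comparison. Those with the smallest p in PLK2 against Vector were PITHD1, a proteasome-binding protein, at -0.15 on the log2 scale (SE 0.06, adjusted p = 0.223), and the ubiquitin receptor ADRM1 at -0.15 (SE 0.07, adjusted p = 0.28). POMP, the maturation factor of the core, was at 199 TPM and SEM1, the smallest cap subunit, at 668 TPM. Of the 16 genes around NFE2L1, the factor that raises proteasome genes when the proteasome is inhibited, 0 passed. FBXW7, a ubiquitin ligase subunit that targets NFE2L1, was at 0.28 on the log2 scale (SE 0.07, adjusted p = 0.0879) in PLK2 against Vector, and MAFG, a partner of NFE2L1 on DNA, 0.29 (SE 0.07, adjusted p = 0.0923). Between PLK2 and PLK2(D223N), MAFG was at 0.31 (SE 0.07, adjusted p = 0.151). The median over these 16 genes was 0.043 in PLK2 against Vector and 0.048 in PLK2(D223N) against Vector.

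Of VCP, the segregase that pulls proteins out of complexes, and its cofactors, 15 genes were tested and 0 passed, with a smallest adjusted p of 0.226 for NPLOC4 in PLK2 against Vector (-0.18, SE 0.07). Of 6 ubiquitin and E1 enzyme genes 0 passed, with a smallest adjusted p of 0.241 for UBA6 (0.22, SE 0.09) in the same comparison. Of 17 tested genes of antigen processing and MHC class I, 0 passed. IRF1, a transcription factor that induces the immunoproteasome genes, had the smallest p in PLK2 against PLK2(D223N), at 0.37 (SE 0.10, adjusted p = 0.395). Class I genes were well expressed beside the near silent PSMB8 and PSMB9, with B2M at 457 TPM and HLA-C at 197 TPM. TAP1 and TAP2, the peptide transporter genes that lie beside PSMB9 and PSMB8 on chromosome 6, were at 11.1 and 19.5 TPM.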

How the data were processed

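Per the labels' protocols, polyadenylated RNA of HEK293T cells was sequenced. Bowtie2, RSEM (1.3.1), DESeq2 (1.4.5) and build GRCh38.p13 are named in the submitters' processing notes. No source used here states what each tool did, which annotation was used, or whether counting used strand. The authors deposited estimated counts and TPM per gene, both used here, beside FPKM and scaled counts, which were not. A Vector library titled with transposed letters was matched to its column by number.

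Estimated counts were rounded. filterByExpr kept 12924 genes, which were scaled by TMM and fitted in edgeR 4.0.16 (glmQLFit and glmQLFTest, robust, two-sided) with all 9 libraries and the group as the only term. P-values were adjusted by the Benjamini-Hochberg method over all tested genes and called below 0.05. SE and 95% intervals came from the F statistic. CPM are on the TMM scale. Alternatives used limma (3.58.1) and DESeq2 (1.42.0) in R (4.3.3), tables were made in Python (3.11.15), and the fit was tested on simulated data. GC content, length and gene positions came from GENCODE release 29. Start regions came from RefSeq, where 44 of the 50 members had a window.

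The members, gene lists and rules were chosen with earlier results of these data known. Genes are named if they are catalytic, inducible, tissue-specific, activator or inhibitor genes, PSMD4 or PSMD14, called, among the 4 with the smallest p in each direction of a comparison, the highest or lowest of their class, or matched by symbol alone. Of each other list, called genes and the 2 with the smallest p are named. PSMG1, PSMG4, PSMB3, the members whose libraries did not overlap, and a few genes given by level were named after their values were seen. The 19 alternatives are in the closing section.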

Additional observations from a re-analysis of the deposited data

How the results depend on the processing

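No proteasome gene passed under 17 of the 19 alternatives in any comparison. Without Vector replicate 2, 3 members were called lower in PLK2 against Vector, PSME1 at -0.22 (SE 0.07, adjusted p = 0.0369), PSMB3 at -0.20 (SE 0.07, adjusted p = 0.0489) and PSMB5 at -0.18 (SE 0.06, adjusted p = 0.0478), among 12.7% of all genes. Leaving out each library in turn thus gave 0 to 3 called members there and 0 in the other comparisons. In a fit to the 6 libraries compared, 1 member was called in PLK2 against PLK2(D223N), PSMC1 at 0.10 (SE 0.03, adjusted p = 0.0275), among 3.92% of all genes. Over all 46 tested members, the sign differed between settings for 26 in PLK2 against Vector, 20 in PLK2(D223N) against Vector and 26 in PLK2 against PLK2(D223N). For the 24 gene values with the smallest p, which are the ones named in each direction of a comparison, 443 of 450 values under an alternative kept their direction and side of the threshold, 2 passed it (PSMB5 and PSMC1) and 5 turned. With the GC and length trends removed, PSMC6 turned to -0.022 in PLK2 against Vector and to -0.031 in PLK2(D223N) against Vector, and PSMC2 to -0.022 in PLK2(D223N) against Vector. Leaving out each library, PSMC6 ran from -0.027 (without Vector replicate 1) to 0.129 (without Vector replicate 2) in PLK2(D223N) against Vector. PSMD9 ran from -0.101 (without PLK2(D223N) replicate 3) to 0.002 (without PLK2(D223N) replicate 1) in PLK2 against PLK2(D223N).

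With a term for the replicate number (replicate block), 0 members were called in each comparison, and the medians were -0.019, -0.057 and 0.034. The deviations of same-numbered libraries correlated between -0.11 and 0.14. These values show no pairing by number, but counting noise can hide one, so that it stays unknown. With 3 libraries a group, the precision is that of the intervals given, which take their spread from all 9 libraries. PSMC1, PSMC2, PSMC3IP and PSMG4 had estimated counts that were not whole (tolerance 0.005) in 8 or 9 libraries. Reads shared with other loci may make them uncertain, but the share of such reads was not measured. The strand setting is not known, so that overlapping genes such as PSMB9 and TAP1 may share reads.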

Other observations

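In the RefSeq windows of 250 bases before to 50 after the start, other letters were also counted on both strands, over the 44 members with a window and over 27305 genes. CCGGAAGT, a binding sequence of ETS factors such as GABPA, was in 11 members (25%) and in 4.95% of all genes, and its part GGAAGT in 24 members (54.5%) and 26.6% of all genes. TGACNNNGC, a short form of the antioxidant response element that NFE2L1 binds, was in 15 members (34.1%) and 16.1% of all genes, while the stricter TGACTCAGC was in 0 members and 0.689% of all genes. CCAAT was in 22 members (50%) and 39.7% of all genes, TTCNNNGAA, a core of heat shock elements, in 8 (18.2%) and 9.38%, and TATAAA in 5 (11.4%) and 14%. The cyclic AMP response element TGACGTCA was in 0 members and in 2.25% of all genes. The 27305 genes are not limited to those listed in these data and were not matched to the members by level or GC content. A match is a description of letters and not a bound site.

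The members varied little between libraries. The coefficient of variation of CPM over the 9 libraries had a median of 5.24% over the 46 tested members and 7.55% over all tested genes. At a mean of at least 50 TPM, it was 5.22% over 39 members and 5.62% over 3254 genes.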
